A study of Mus musculus with 55 samples.

Results

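Interferon-induced genes are the genes that cells switch on when interferons, the secreted antiviral cytokines, bind their receptors. Signals from type I and type III receptors end at a promoter element called the interferon-stimulated response element (ISRE), and those of interferon gamma at the gamma-activated site (GAS). The products cut viral RNA, block viral replication or damp the pathway again, and in liver both hepatocytes and resident macrophages use it. The genes described here were taken by name, as members of the Ifi, Ifn, Oas, Irf, Gbp, Trim, Apol and related families, from 2 RNA-seq tables of mouse liver, and 31 of the 4113 genes in the tables had such a name. Of these, 29 stood among the 3900 genes of the Setd8-LKO table, 4 among the 719 genes of the wild type table, and 2, Ifi27l2b and Trim24, in both. The name is wider than the label. It also takes 12 Trim and 5 Apol genes, many of which are not known to respond to interferon. In the GENCODE M21 annotation 202 protein-coding genes have a matching name, most of which (among them Irf7, Irf9, Isg15, Ifit1 and Mx1) were not analysed here.

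Total RNA came from whole livers of male C57Bl6 mice 45 to 50 days old. The groups were wild type untreated mice (WT, n = 5, libraries WT1 to WT5), wild type mice 24 h after 3 mg/kg of the CAR agonist and liver mitogen TCPOBOP (WT + TCPOBOP, n = 5, WTtcp1 to WTtcp5), and Setd8-LKO mice 24 h after the same dose (Setd8-LKO + TCPOBOP, n = 4, LKO1 to LKO4). Setd8-LKO mice carry a floxed Setd8 allele and the Alb-Cre transgene, whose albumin promoter acts in hepatocytes, so the other liver cells keep the gene. The controls are called untreated as in their labels, whereas the methods name a corn oil vehicle. Genotype and treatment change together between Setd8-LKO + TCPOBOP and WT, and their effects cannot be told apart in that comparison.

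Because the tables list only genes that the authors selected as changed, nearly all listed genes pass a test on the same libraries, and the sum over a table is not the depth of a library. The listed genes summed to between 5734065 and 12780869 raw counts per library in the Setd8-LKO table. Counts of Kmt5a, the gene for Setd8, cover the whole gene rather than the deleted exon and so do not check the deletion. The libraries labelled Setd8-LKO had 1313 to 1465 normalized counts of it, and WT had 563 to 761. Markers of other cells moved as well. All 9 listed hepatocyte markers of 12 fell, with summed normalized counts of 1251602 to 2031569 in WT and 503478 to 721882 in Setd8-LKO + TCPOBOP. All 6 cholangiocyte markers, 5 of 9 stellate cell markers, 4 of 20 Kupffer cell and macrophage markers (Ly6c2, Marco, Ccr2 and Cd14) and 2 of 4 plasmacytoid dendritic cell markers were listed and rose. The 4 listed macrophage markers summed to 127 to 368 in WT and 697 to 1037 in Setd8-LKO + TCPOBOP, and the 2 dendritic cell markers to 29 to 44 and 58 to 147. One of the 2 listed neutrophil markers of 10, S100a9, rose (the sum of both went from 6 to 100 to 71 to 121), and all 3 listed B cell markers of 6 fell, from 52 to 114 to 25 to 29. No marker of T and NK cells, endothelial cells or leukocytes in general is listed. In WT + TCPOBOP the only listed markers were Marco and the stellate cell marker Lrat. Marco was called higher there, at 73 to 272 in WT and 210 to 576 in WT + TCPOBOP. Lrat was called lower, at 268 to 389 and 113 to 166. In whole liver, a change in the number of cells of a type and a change in RNA per cell cannot be told apart, and the part of cell composition in the results below was not tested.

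The letters of the promoters come first, since the ISRE is what the best known of these genes share. RefSeq promoter windows, from 250 bases before to 50 bases after each start in the GRCm38.p6 assembly, were matched by symbol for 24 of the 31 genes. The ISRE core, GAAA, any 2 bases and GAAA again, was searched on both strands. It was found in the windows of 10 of the 24 genes (41.7%) and of 1079 of all 27025 genes with a window (3.99%). The 10 genes were Oas1a, Oas1g and Rsad2, whose RNA was higher in Setd8-LKO + TCPOBOP, Apol7c, Apol7e, Gbp2b, Ifi208, Irf2 and Trim30a, whose RNA was lower, and Apol10b, whose counts were too low for the test. The match therefore stood in 3 of 13 higher genes with a window (23.1%) and in 6 of 9 lower genes (66.7%). A core longer by CT at its end stood in 2 of the 13 higher genes (15.4%) and 1 of the 9 lower genes (11.1%). The larger share in lower genes was thus not seen with the longer core. Of 5 antiviral effector genes with a window, 3 had the short core (60%). The GAS core TTCNNNGAA was found in 4 of the 24 genes (16.7%), Irf2, Oas1a, Trim45 and Trim46, and in 9.55% of all genes. These are matches of letters, and no match in this window says nothing about the rest of the gene.

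Shown here, 5′ to 3′ on the strand of the gene and upstream of the start, are 100 bases around the ISRE core of 6 of these genes, with the core in capitals, while genes whose 100 bases touch an annotated exon (Apol7c, Apol7e, Irf2), or whose core crosses the start (Apol10b), are not shown. Where the core lies on the other strand it begins and ends with TTTC. In the paralogues Oas1a and Oas1g a pair of cores overlap directly before the start, and 98 of 100 bases around the cores are identical between the genes.
Oas1a, chr5:120907526-120907625, minus strand: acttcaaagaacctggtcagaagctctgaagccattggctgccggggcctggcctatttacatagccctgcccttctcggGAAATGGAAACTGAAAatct
Oas1g, chr5:120887614-120887713, minus strand: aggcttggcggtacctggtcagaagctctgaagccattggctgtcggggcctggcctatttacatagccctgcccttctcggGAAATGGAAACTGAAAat
Rsad2, chr12:26456518-26456617, minus strand: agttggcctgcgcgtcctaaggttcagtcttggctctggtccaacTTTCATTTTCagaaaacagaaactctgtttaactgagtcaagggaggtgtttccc
Trim30a, chr7:104465194-104465293, minus strand: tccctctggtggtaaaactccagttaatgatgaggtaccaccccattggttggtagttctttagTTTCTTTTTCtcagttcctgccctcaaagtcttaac
Gbp2b, chr3:142594665-142594764, plus strand: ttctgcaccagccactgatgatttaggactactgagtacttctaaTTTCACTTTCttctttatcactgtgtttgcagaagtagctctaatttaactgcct
Ifi208, chr1:173673565-173673664, plus strand: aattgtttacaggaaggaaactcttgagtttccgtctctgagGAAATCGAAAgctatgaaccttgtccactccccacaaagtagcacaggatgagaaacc

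To learn how the members stood in TCPOBOP-treated livers lacking Setd8 in hepatocytes, the 4 Setd8-LKO + TCPOBOP libraries were compared with the 5 WT libraries, and the members moved in both directions. All 7 listed genes of the antiviral effector group and the receptor gene Ifnlr1 were higher, as were 9 of 10 listed Trim genes. The effector group was formed by name and includes Usp18, which damps the pathway, and Ifi44l, whose function is unclear. The 4 tested Apol genes, the transcription factor genes Irf2 and Irf5, the GTPase genes Gbp2b and Iigp1, and the DNA sensor family gene Ifi208 were lower. A gene was called at a Benjamini-Hochberg adjusted p under 0.05 in edgeR's quasi-likelihood test and at least a doubling or halving of its count (an absolute log2 fold change of 1). In all, 17 of 28 tested members (60.7%) were called higher and 10 (35.7%) lower, and the shares over all 3807 tested genes of this preselected table were 59.0% and 39.0%. The median log2 fold change was 1.16 over the members and 1.19 over all tested genes, so neither share nor median set the members apart from the table. Among all calls here, 60.2% were higher with the authors' factors, and 40% with DESeq2's size factors over listed genes. The groups did not overlap for 24 of the 29 listed members (82.8%, against 84.8% of all listed genes).

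**Figure D1:**
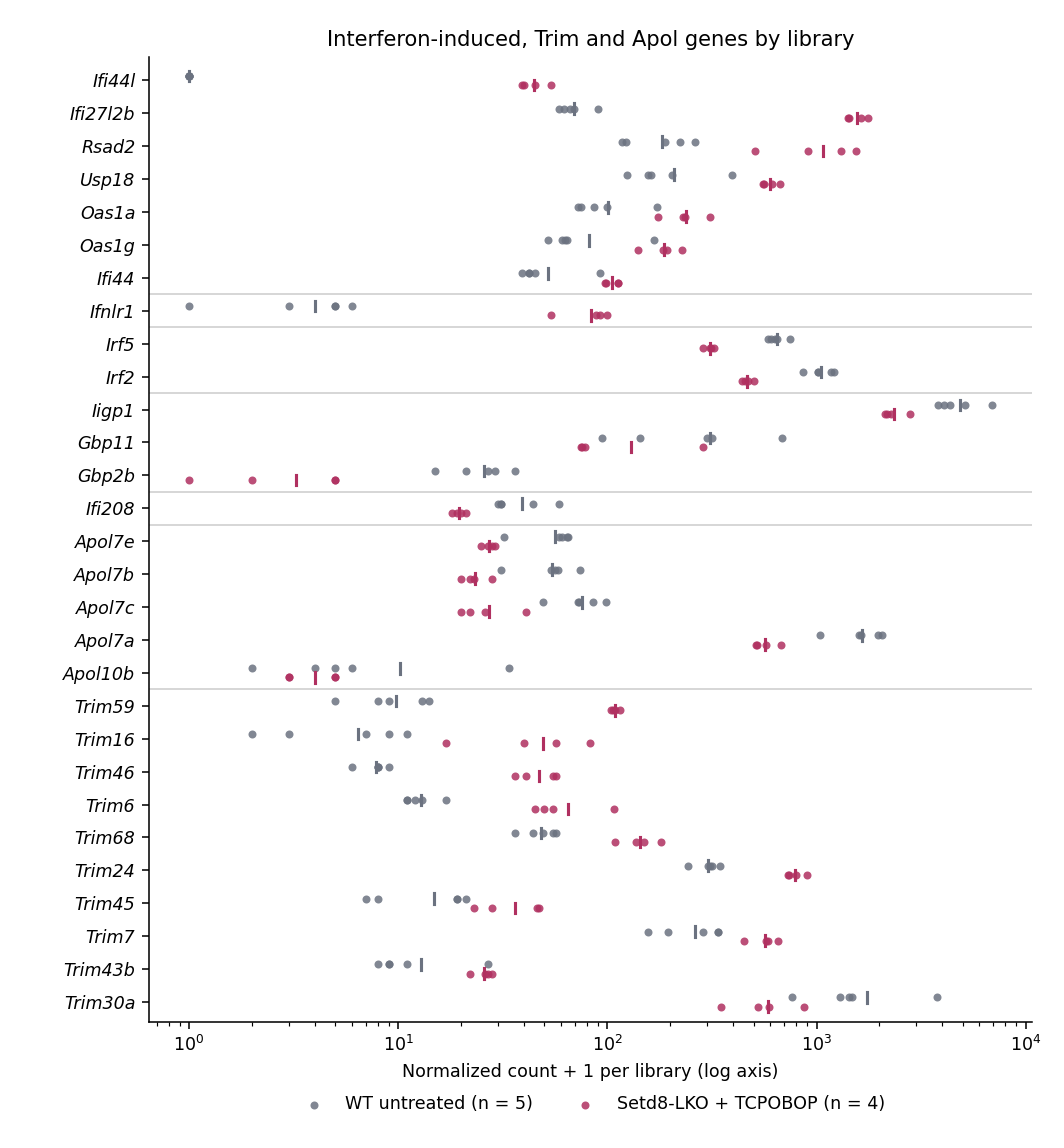
Normalized count plus 1 (log axis) in every WT untreated (grey, n = 5) and Setd8-LKO + TCPOBOP (red, n = 4) library for the 29 members of the Setd8-LKO table, grouped by role, where each point is a library and each bar a group mean. The red points lie right of all grey ones for 15 members and left of them for 9, and the largest gaps are those of Ifi44l, Ifi27l2b and Ifnlr1.

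Among the antiviral effectors, Ifi44l had no read in any WT library and rose from that floor. This gene (chr3:151758737-151762892) encodes an interferon-induced protein of unclear biochemical function and lies beside its paralogue Ifi44. It was at 0 normalized counts in WT1 to WT5 and at 38, 44, 39 and 53 in LKO1 to LKO4. Set against 3 raw counts over the whole WT group, the most that a total of 0 allows, it was at least 66.2-fold higher (edgeR adjusted p = 8.83e-06). Ifi44 itself (chr3:151730922-151749960) stood at 41, 38, 44, 91 and 41 in WT1 to WT5 and at 112, 96, 111 and 98 in LKO1 to LKO4. The groups do not overlap, although WT4 lay just under the lowest Setd8-LKO library, and the log2 fold change of 1.03 (SE 0.28, edgeR adjusted p = 0.00403) stood at the limit for a call and fell to between 0.94 and 1.00, just under it, without WT1, WT2, WT3, WT5, LKO1 or LKO3.

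Ifi27l2b (chr12:103450898-103457223), a member of the Ifi27 family of small membrane proteins, showed the clearest separation of all members. Its normalized counts were 58, 65, 68, 61 and 89 in WT1 to WT5 and 1423, 1416, 1623 and 1758 in LKO1 to LKO4, so that the means were 68.2 ± 12.2 (SD, n = 5) and 1555 ± 166 (SD, n = 4). The log2 fold change was 4.51 (SE 0.17, edgeR adjusted p = 5.68e-08), and the exact permutation test (two-sided) reached p = 0.00794, the lowest that 5 against 4 libraries allow. Its near-identical relative Ifi27l2a was not analysed here, and whether the counting split reads between the copies is not stated.

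Rsad2 (chr12:26442746-26456452) encodes viperin, an enzyme that makes a chain-terminating nucleotide against viral polymerases. It stood at 116, 122, 221, 260 and 187 in WT1 to WT5 and at 1548, 1313, 906 and 509 in LKO1 to LKO4. All 4 Setd8-LKO libraries were above all WT libraries (log2 fold change 2.56, SE 0.35, edgeR adjusted p = 4.48e-05), but they spread over a wide range, with a mean of 1069 ± 458 (SD, n = 4). Usp18 (chr6:121245906-121270917), the protease that removes ISG15 from proteins and damps signalling at the type I receptor, stood at 155, 123, 203, 395 and 161 in WT1 to WT5 and at 558, 553, 666 and 615 in LKO1 to LKO4. It rose by a log2 fold change of 1.53 (SE 0.30, edgeR adjusted p = 0.00062).

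The oligoadenylate synthetase genes Oas1a and Oas1g, whose family activates RNase L after binding double-stranded RNA, rose to a similar degree. Oas1a had 74, 71, 99, 171 and 85 normalized counts in WT1 to WT5 and 234, 229, 310 and 174 in LKO1 to LKO4 (log2 fold change 1.24, SE 0.28, edgeR adjusted p = 0.00152). Oas1g had 63, 51, 60, 166 and 62 in WT1 to WT5 and 192, 183, 226 and 139 in LKO1 to LKO4 (log2 fold change 1.20, SE 0.35, edgeR adjusted p = 0.00607). WT4 reached into the range of the Setd8-LKO libraries for Oas1g and stopped just short of it for Oas1a. The genes are neighbours of near-identical sequence, and reads may have been shared between them.

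WT4 was the highest WT library for 5 of the 7 effectors, all but Ifi44l and Ifi27l2b. Without it, the log2 fold changes of Ifi44, Usp18, Oas1a, Oas1g and Rsad2 were larger, at 1.34, 1.90, 1.52, 1.65 and 2.73. The libraries also come from 2 runs named in the table headers. WT3, WT4, WT5 and LKO4 are of run A, and WT1, WT2 and LKO1 to LKO3 of run B. The log2 ratio of the group means of Rsad2 was 1.19 within run A and 3.39 within run B, and it was likewise smaller in run A for Oas1a (0.55 and 1.82), Oas1g (0.53 and 1.80), Usp18 (1.28 and 2.08) and Ifi44 (0.73 and 1.41). For Ifi27l2b the runs gave 4.58 and 4.57. Run A holds a single Setd8-LKO library, and the difference between the runs was not tested. All 7 effectors were still called when the fit also held the run, with Rsad2 at 2.64. Ifi44l, Ifi27l2b and Rsad2 also kept their calls when libraries were scaled over the listed genes by DESeq2's size factors, whereas Usp18 (0.76), Oas1a (0.48), Oas1g (0.43) and Ifi44 (0.24) then stayed above 0 but under the fold limit.

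**Figure D2:**
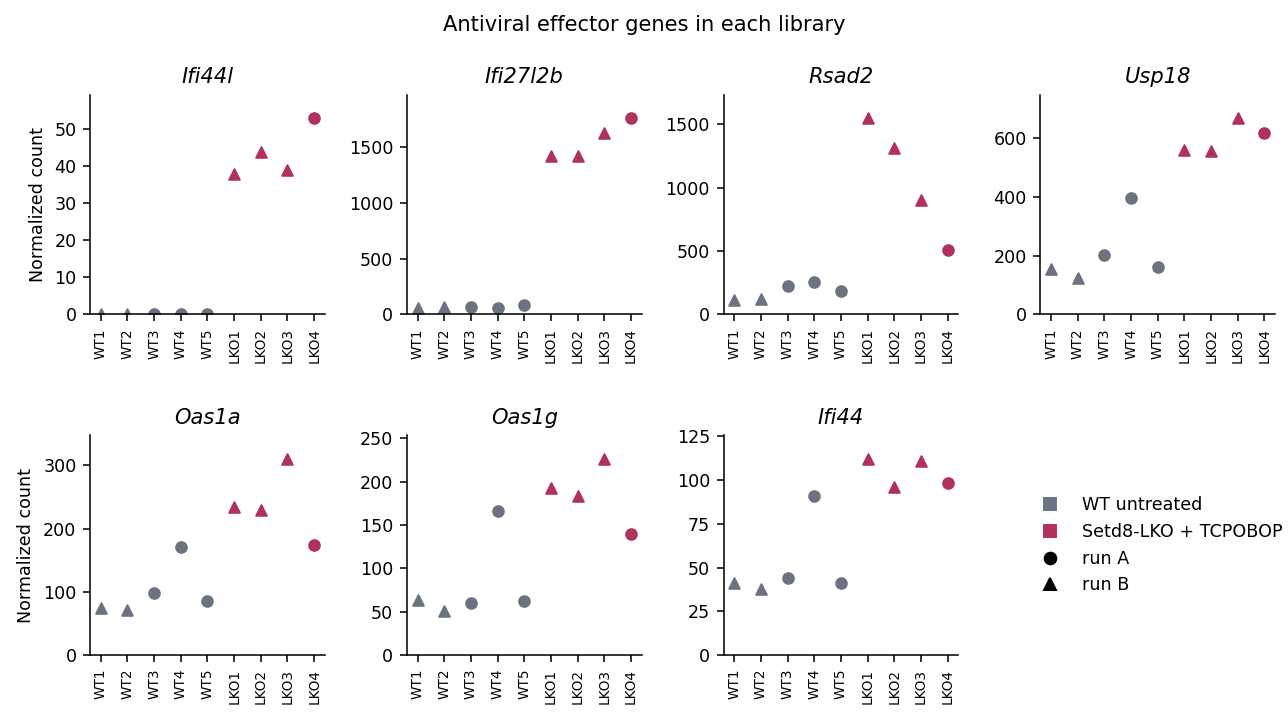
Normalized count (linear axis from 0) of the 7 antiviral effector genes in each WT untreated (grey) and Setd8-LKO + TCPOBOP (red) library, with circles for run A and triangles for run B. Ifi44l and Ifi27l2b separate the groups by a wide margin in both runs, whereas WT4 stands above the other WT libraries for Usp18, Oas1a, Oas1g and Ifi44, and LKO4 is the lowest red point for Rsad2, Oas1a and Oas1g.

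Ifnlr1 (chr4:135686287-135708181), the receptor chain that gives type III interferons their specificity and is expressed mostly in epithelial cells, rose from near the detection limit. It stood at 2, 0, 5, 4 and 4 normalized counts in WT1 to WT5 and at 91, 99, 53 and 87 in LKO1 to LKO4. The log2 fold change was 4.62 (SE 0.45, edgeR adjusted p = 5.21e-06), with log2 ratios of 4.04 within run A and 5.36 within run B. It was the only receptor gene among the members, and no ligand gene was among them.

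The transcription factor genes fell. Irf2 (chr8:46739732-46847458), which binds ISRE-like sites and is best known as an antagonist of Irf1, stood at 1011, 861, 1207, 1020 and 1170 in WT1 to WT5 and at 469, 454, 439 and 499 in LKO1 to LKO4 (log2 fold change -1.18, SE 0.14, edgeR adjusted p = 2.18e-05). Irf5 (chr6:29526625-29541871), which acts downstream of Toll-like receptors mainly in myeloid cells, stood at 750, 608, 634, 588 and 647 and then at 323, 313, 285 and 307 (log2 fold change -1.07, SE 0.13, edgeR adjusted p = 2.62e-05). The groups lay far apart for both genes. Irf5 overlaps Tnpo3 on the opposite strand, and since the strand used in counting is not stated, reads of the pair cannot be told apart.

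Of the interferon gamma-inducible GTPases, which attack the vacuoles of intracellular pathogens, none was called higher. Gbp2b (chr3:142594847-142619179) fell the most of all members, from 35, 26, 14, 20 and 28 in WT1 to WT5 to 0, 4, 1 and 4 in LKO1 to LKO4 (log2 fold change -3.42, SE 0.59, edgeR adjusted p = 0.000228). Iigp1, on chromosome 18, stood at 5104, 4329, 4058, 6899 and 3801 in WT1 to WT5 and at 2127, 2169, 2262 and 2790 in LKO1 to LKO4. These groups did not overlap, and Iigp1 fell by 1.05 on the log2 scale (SE 0.20, edgeR adjusted p = 0.000517), a value that came to -0.89, and was no longer called, without WT4. Gbp11, annotated as a polymorphic pseudogene, stood at 684, 317, 299, 143 and 93 in WT1 to WT5 and at 77, 75, 74 and 287 in LKO1 to LKO4 and was not called (log2 fold change -1.26, SE 0.61, edgeR adjusted p = 0.0653). Its log2 ratio was 0.68 within run A and -2.72 within run B, and it was called at -2.03 without LKO4, -1.44 without WT4 and -1.49 without WT5. Ifi208 (chr1:173673675-173698395), of the AIM2-like family of DNA sensors, stood at 29, 30, 30, 58 and 43 and then at 19, 17, 20 and 18. Its log2 fold change of -1.02 (SE 0.28, edgeR adjusted p = 0.00438) was -0.82 without WT4, -0.97 without WT5 and -0.98 without LKO2, and then no longer called.

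The Apol genes are relatives of human apolipoprotein L genes and lie in a cluster on chromosome 15. The 4 tested here all fell, in a table where 39.0% of all tested genes were called lower. Apol7a had the highest counts and stood at 2045, 1957, 1041, 1627 and 1596 in WT1 to WT5 and at 516, 570, 510 and 673 in LKO1 to LKO4 (log2 fold change -1.54, SE 0.21, edgeR adjusted p = 4.17e-05). Apol7c stood at 98, 84, 48, 72 and 71 and then at 21, 25, 19 and 40, a log2 fold change of -1.51. Apol7b stood at 55, 53, 30, 73 and 57 and then at 21, 19, 22 and 27, a log2 fold change of -1.28. All 4 Setd8-LKO libraries were below all WT libraries for each of these genes. Apol7e stood at 60, 58, 31, 64 and 63 and then at 24, 27, 28 and 26, a log2 fold change of -1.06, again without overlap. For these 3 genes the edgeR adjusted p lay between 0.000589 and 0.00207. Apol10b was at 1, 4, 5, 33 and 3 in WT1 to WT5 and at 4, 2, 4 and 2 in LKO1 to LKO4, which was too low to be tested. The copies resemble one another, and how the counting treated reads that match several of them is not stated.

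The Trim genes encode RING-type ubiquitin ligases or their relatives. The 10 listed here rose with a single exception, in a table where 59.0% of all tested genes were called higher. Trim59, a membrane-bound ligase linked to cell growth, stood at 7, 8, 12, 4 and 13 in WT1 to WT5 and at 114, 108, 103 and 105 in LKO1 to LKO4 (log2 fold change 3.57, SE 0.30, edgeR adjusted p = 2.08e-06). Trim16 stood at 8, 1, 2, 6 and 10 and then at 82, 56, 16 and 39 (log2 fold change 3.08, SE 0.57). Trim46, known for the microtubules of axons, stood at 8, 5, 7, 7 and 7 and then at 35, 56, 54 and 40 (log2 fold change 2.72, SE 0.27). These genes were low in WT liver, with group means under 10 normalized counts. Trim6, which takes part in the signalling of the kinase IKKε in the interferon response, stood at 10, 11, 12, 16 and 10 and then at 54, 49, 44 and 107 (log2 fold change 2.40, SE 0.33). Trim68 stood at 54, 35, 56, 48 and 43 and then at 136, 149, 108 and 179 (log2 fold change 1.59, SE 0.22). In all of these the groups did not overlap, and the edgeR adjusted p lay between 2.08e-06 and 0.000384. Trim16 shares sequence with Fbxw10 on the same strand and Trim46 with Krtcap2 on the opposite strand.

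Trim24 (307, 242, 316, 346 and 301 in WT1 to WT5 and 729, 793, 738 and 902 in LKO1 to LKO4), Trim45 and Trim7 rose less, with log2 fold changes of 1.39, 1.36 and 1.11 and no overlap between the groups. Trim43b, at 7, 10, 26, 8 and 8 in WT1 to WT5 and 26, 21, 25 and 27 in LKO1 to LKO4, was called at 1.04 (SE 0.38, edgeR adjusted p = 0.02) with WT3 inside the range of the Setd8-LKO libraries. Its log2 fold change was 1.55 without WT3 and 0.91 to 0.99, under the limit, without any other WT library, and that of Trim7 was 0.97 without WT3. Trim68 (0.77), Trim24 (0.58), Trim45 (0.48), Trim7 (0.25) and Trim43b (0.25) were above 0 but not called under DESeq2's size factors, so that 4 of the 9 Trim genes kept their call there. The exception was Trim30a (chr7:104409025-104465193), an interferon-inducible Trim gene that restrains Toll-like receptor signalling in macrophages. It stood at 3781, 765, 1482, 1293 and 1432 in WT1 to WT5 and at 590, 525, 348 and 874 in LKO1 to LKO4. The groups overlapped through WT2 and LKO4, and the log2 fold change was -1.58 (SE 0.44, edgeR adjusted p = 0.00474) with WT1 and -1.09 without it. Reads may be shared between Trim30a and its close relative Trim30d.

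**Figure D3:**
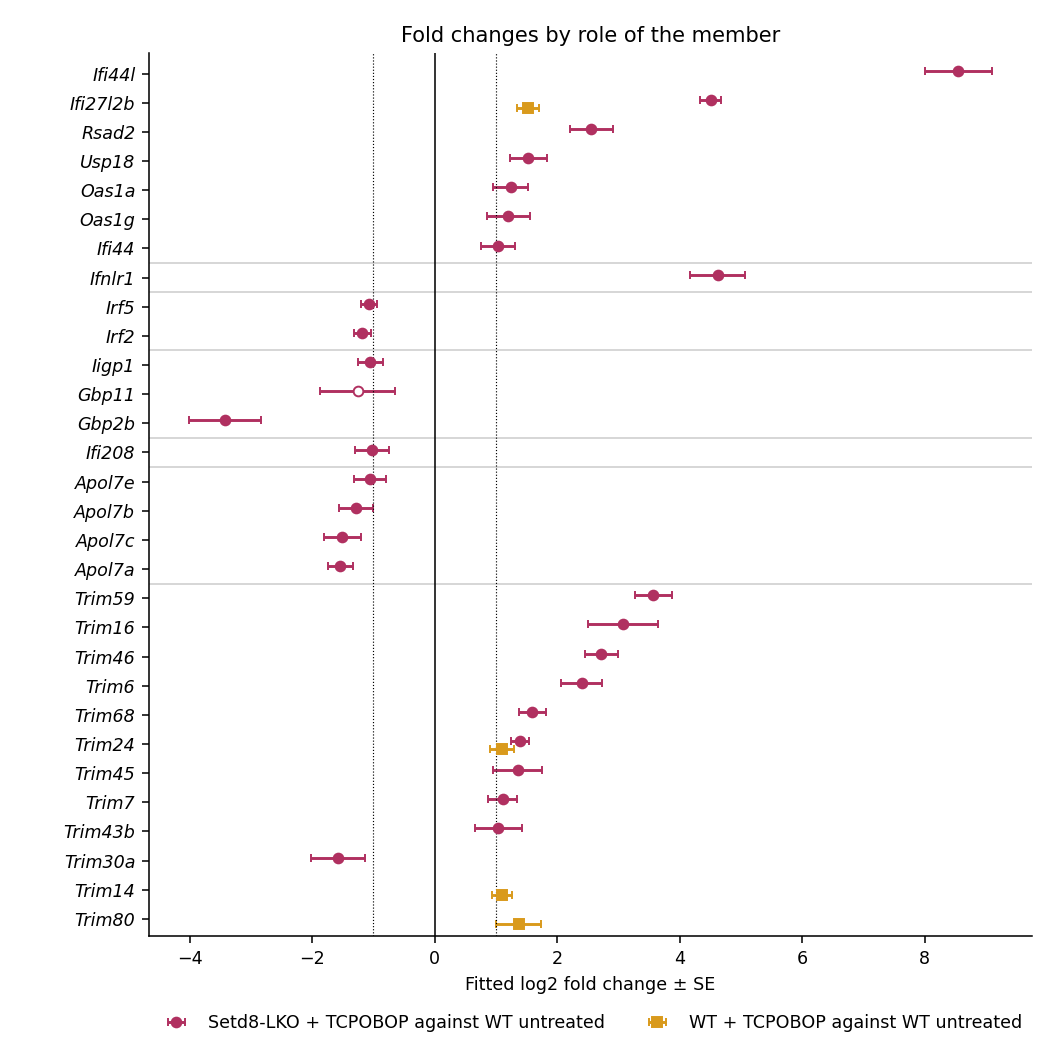
Fitted log2 fold change (x axis, bars are standard errors) of each tested member against WT untreated, with red circles for Setd8-LKO + TCPOBOP and yellow squares for WT + TCPOBOP, filled where called and open where not, dotted lines at -1 and 1, and members ordered by role. Effectors, Ifnlr1 and all Trim genes but Trim30a lie right of 0, and Irf, GTPase, Ifi208 and Apol genes lie left of it, while the position of Ifi44l, which had no count in WT, depends on the prior count of the fit.

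Other genes of the pathway were set beside the members with a list of 87 genes of signalling, antigen presentation, chemokines and further interferon targets. Of them, 15 were listed with the Setd8-LKO libraries, of which 10 were called higher and 5 lower, beside the 59.0% and 39.0% of all tested genes of the table. The genes called higher included Cxcl10, a chemokine for T cells (from 40 ± 9.49 to 271 ± 99.1 normalized counts, log2 fold change 2.76), Slfn9 (1.97), Ikbke, the gene of IKKε (1.74), Ly6e (1.31), and the MHC class II genes H2-Eb1 (1.58), H2-Ab1 (1.23) and H2-Aa (1.21). Those called lower were Sp110 (-2.87), Cxcl11 (-2.26), Cxcl9 (-1.78), Mavs, the adaptor of the cytosolic RNA sensors (-1.05), and B2m, the invariant chain of MHC class I (-1.01). The chemokine genes Cxcl9, Cxcl10 and Cxcl11, which are neighbours on chromosome 5 and share the receptor CXCR3, thus moved in different directions.

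For the question of what the mitogen did without the deletion, the 5 WT + TCPOBOP libraries were compared with the same 5 WT libraries. Of the members, 4 were listed, and all 4 were called higher, 3 of them with no overlap between the groups (80.5% of all listed genes had none), at a share of 68.0% higher and 30.9% lower over the 679 tested genes of that table. The median log2 fold change was 1.23 over the members and 1.35 over all tested genes. Among all calls there, 68.8% were higher with the authors' factors, 36.6% with DESeq2's size factors and 41.5% with TMM. Ifi27l2b stood at 194, 209, 213, 185 and 183 in WTtcp1 to WTtcp5, above all WT libraries (log2 fold change 1.53, SE 0.18, edgeR adjusted p = 2.05e-05). Trim14, which supports signalling from the RNA sensor RIG-I at mitochondria, stood at 1437, 1235, 1052, 1228 and 953 in WT1 to WT5 and at 2307, 2170, 2680, 2742 and 2750 in WTtcp1 to WTtcp5 (log2 fold change 1.10, SE 0.16, edgeR adjusted p = 6.88e-05). Again the groups did not overlap. Trim14 overlaps Nans on the opposite strand.

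Trim24 was called at a log2 fold change of 1.10 (SE 0.19, edgeR adjusted p = 0.000214) and, without WTtcp2, was at 0.99, just under the limit. Its normalized counts were 679, 830, 569, 700 and 462 in WTtcp1 to WTtcp5, all above the WT libraries. Trim80 (chr11:115440545-115448270) stood at 31, 25, 44, 48 and 33 in WT1 to WT5 and at 103, 99, 103, 139 and 28 in WTtcp1 to WTtcp5. WTtcp5 lay within the WT range. The log2 fold change was 1.37 (SE 0.37, edgeR adjusted p = 0.00407). Of the other 87 pathway genes only Ikbke was listed here, and it rose from 605 ± 220 to 2192 ± 149 (log2 fold change 1.86, edgeR adjusted p = 4.63e-05). The direction of these values rests on the authors' scaling. Scaling over the listed genes takes most of them to be unchanged. These genes were selected as changed, so such scaling cannot decide the direction. When the libraries were scaled over the listed genes by TMM or by DESeq2's size factors, the median of all genes fell by 0.99 or 1.16. Of the 4 members 0 were then called by edgeR (1 of 4 had an unadjusted p under 0.05 with TMM and 0 with DESeq2's size factors), while DESeq2's own test with the authors' factors called all 4. In the Setd8-LKO table DESeq2's size factors moved the median of all genes by -0.83, and 8 members were then called higher and 11 lower, with no sign reversed.

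Ifi27l2b and Trim24 can be followed through all 3 groups, because the scaling factors of the shared WT libraries agree between the tables to within 0.000777%. Both comparisons share the WT libraries. Ifi27l2b was at 68.2 ± 12.2 in WT, 197 ± 13.7 in WT + TCPOBOP and 1555 ± 166 in Setd8-LKO + TCPOBOP. Between the groups that both received TCPOBOP it was 7.9-fold higher in Setd8-LKO, with no overlap (exact two-sided permutation p = 0.00794, the smallest possible, and 0.0159 after Benjamini-Hochberg adjustment over the 2 genes compared). The ratio was 8.56 within run A and 8.08 within run B. Trim24, which encodes a transcriptional cofactor of nuclear receptors, was at 302 ± 37.9 in WT, 648 ± 139 in WT + TCPOBOP and 790 ± 79.5 in Setd8-LKO + TCPOBOP. The 1.22-fold difference between the treated groups was within the spread of the libraries (exact permutation p = 0.127), although without WTtcp2 the ratio was 1.31 and the exact permutation p = 0.0286. This comparison was chosen after the values had been seen.

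**Figure D4:**
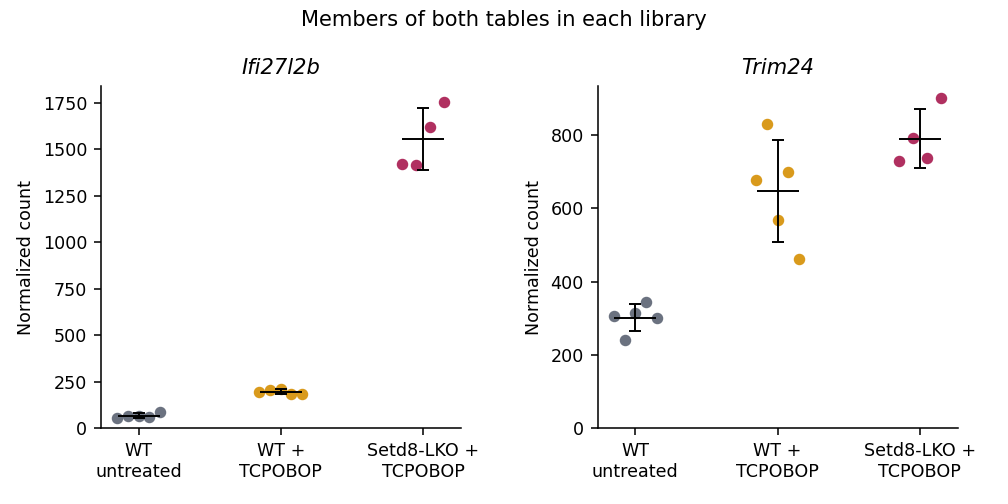
Normalized counts (linear axes from 0) of Ifi27l2b and Trim24 in every WT untreated, WT + TCPOBOP and Setd8-LKO + TCPOBOP library (points), with the group mean (bar) and SD (whiskers). Ifi27l2b rises in steps from 68.2 to 197 and 1555 on average, whereas the ranges of Trim24 in the treated groups overlap.

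Chromatin at the members was read from 1 peak or island list per condition, WT and Setd8-LKO + TCPOBOP, so that differences between lists carry no replicate error and were not tested. Behind the lists stand 3 WT and 5 Setd8-LKO samples for ATAC-seq, 3 of each for H3K27ac, 4 and 2 for CTCF, 3 and 2 for Smc3, 4 of each for Lamin A/C and 2 of each for H4K20me3. The 4 WT samples of Lamin A/C carry only 2 sample numbers, each given to 2 of them, so they may not be separate animals. A promoter was the region within 1000 bp of a GENCODE transcript start, and all 31 members matched the annotation. The exact intervals treat the members as independent draws, which neighbouring paralogues are not. They hold no variation between animals and are no test of the members against the other genes. The other listed genes set beside them are those of the Setd8-LKO table, which does not hold the members Trim14 and Trim80. H3K27ac, a histone mark of active promoters and enhancers, gave a peak at the promoters of the same 13 members in both lists (41.9%, exact 95% interval 24.5 to 60.9), beside 60.3% and 63.9% of the other listed genes. Enrichment over background at Ifnlr1 was 7.25-fold in WT and 28.3-fold in Setd8-LKO + TCPOBOP, and at Trim59 19.3-fold and 40.3-fold. The other members with higher RNA and a peak went both ways. Enrichment was higher at Trim68 (12.2-fold and 16.8-fold) and Usp18 (12.2-fold and 13.3-fold). It was lower at Trim24 (59-fold and 52.5-fold), Trim45 (20.7-fold and 13.6-fold), Trim46 (35.6-fold and 30.3-fold) and Trim7 (50.5-fold and 45.4-fold). Of the members with lower RNA and a peak, enrichment was lower at Irf2 (61.9-fold and 56.7-fold) and higher at Irf5 (41.6-fold and 48.4-fold). At Iigp1 the strongest peaks of the lists (10.2-fold and 8.59-fold) lay at different places. Gbp11, whose RNA was not called, had 19.6-fold and 8.14-fold. No Apol gene had a promoter peak of any assay, nor did Ifi44, Ifi44l, Ifi208, Oas1a, Oas1g, Gbp2b, Trim16 or Trim43b.

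Accessible regions, measured by ATAC-seq, lay at the promoters of 9 members in WT (29%, exact 95% interval 14.2 to 48) and of 10 in Setd8-LKO + TCPOBOP (32.3%, 16.7 to 51.4), beside 44.1% and 37.7% of the other listed genes. At 3 promoters the peak was in the Setd8-LKO list alone, those of Ifi27l2b (15.2-fold enrichment), Trim6 (8.05-fold) and Rsad2 (5.7-fold), and all 3 genes had higher RNA. They are 3 of the 17 members called higher (17.6%), and among the other listed genes called higher 3.28% had a peak in the Setd8-LKO list alone. The Rsad2 peak was weak (-log10 p of 18.4), and with peaks of a -log10 p of at least 20 only, 9 members had one in WT and 7 in Setd8-LKO + TCPOBOP, 2 in the Setd8-LKO list alone (11.8% of the members called higher, beside 2.56% of the others) and 4 in the WT list alone. With all peaks, at 2 promoters the peak was in the WT list alone, that of Trim30a (7.86-fold), with lower RNA, and that of Trim59 (8.54-fold), with higher RNA. The ISRE cores printed above for Rsad2 and Trim30a lie inside these peaks. That of Rsad2, 120 bases before the start, is inside the region chr12:26456405-26456616 of the Setd8-LKO list, and that of Trim30a, 36 bases before the start, is inside chr7:104465106-104465481 of the WT list. No other ISRE core of a member lay in an ATAC peak of either list, including those of Oas1a and Oas1g.

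The peak at Ifi27l2b (chr12:103457201-103457376) covers the start of the gene. Its part upstream of the gene, chr12:103457224-103457376, is shown on the minus strand because the gene has the clearest rise and an ATAC peak in the Setd8-LKO list alone, but no core of either motif in these letters.
Ifi27l2b: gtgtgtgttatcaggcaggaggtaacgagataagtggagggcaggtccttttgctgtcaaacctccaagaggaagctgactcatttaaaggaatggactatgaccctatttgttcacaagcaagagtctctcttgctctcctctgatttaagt

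The cohesin subunit Smc3 and the insulator protein CTCF had more promoter peaks in the Setd8-LKO lists, at members and other genes alike. Smc3 peaks lay at 5 members in WT (16.1%, exact 95% interval 5.45 to 33.7) and at 12 in Setd8-LKO + TCPOBOP (38.7%, 21.8 to 57.8), beside 19.4% and 58.1% of the other listed genes. CTCF peaks lay at 1 member in WT (3.23%, 0.0816 to 16.7) and at 7 in Setd8-LKO + TCPOBOP (22.6%, 9.59 to 41.1), beside 7.07% and 42% of the others. The members with a peak of each protein in the Setd8-LKO list include Trim14 and Trim80, which are not in the Setd8-LKO RNA table. All members with a peak in WT kept one in the Setd8-LKO list. The highest Smc3 enrichments were found in the Setd8-LKO list at Irf2 (132-fold) and Trim24 (131-fold), of which the first fell and the second rose in RNA. The WT peak of Trim24 (10.8-fold) lay at the same place. That of Irf2 (10.3-fold) lay before the start and did not overlap the strongest Irf2 peak of the Setd8-LKO list behind it. The Setd8-LKO list held 2 peaks at Irf2, and the weaker one was not compared. Smc3 peaks that only the Setd8-LKO list held included those of Ifi27l2b (22.4-fold), Ifnlr1 (30.4-fold), Irf5 (57.2-fold) and Trim59 (61.4-fold).

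Islands of Lamin A/C, the nuclear lamina protein, overlapped the gene bodies of 6 members in WT (19.4%, exact 95% interval 7.45 to 37.5) and 5 in Setd8-LKO + TCPOBOP (16.1%, 5.45 to 33.7), beside 7.51% and 5.91% of the other listed genes. Ifi44, Ifi44l, Ifi208, Trim30a and Trim6 overlapped islands in both lists, and Trim68 in WT alone. Of these 5, 3 had higher RNA (Ifi44, Ifi44l and Trim6) and the other two lower RNA. Ifi44l thus went from no read in WT to a measurable level while its gene body overlapped a Lamin A/C island in both lists. Any overlap counted here, however short. If most of the gene body had to lie in islands, 2 members remained in both lists. Islands of H4K20me3, a mark of silent chromatin that is built on the methyl group which Setd8 adds, overlapped Ifi208 in both lists and Trim24 in the Setd8-LKO list alone.

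**Figure D5:**
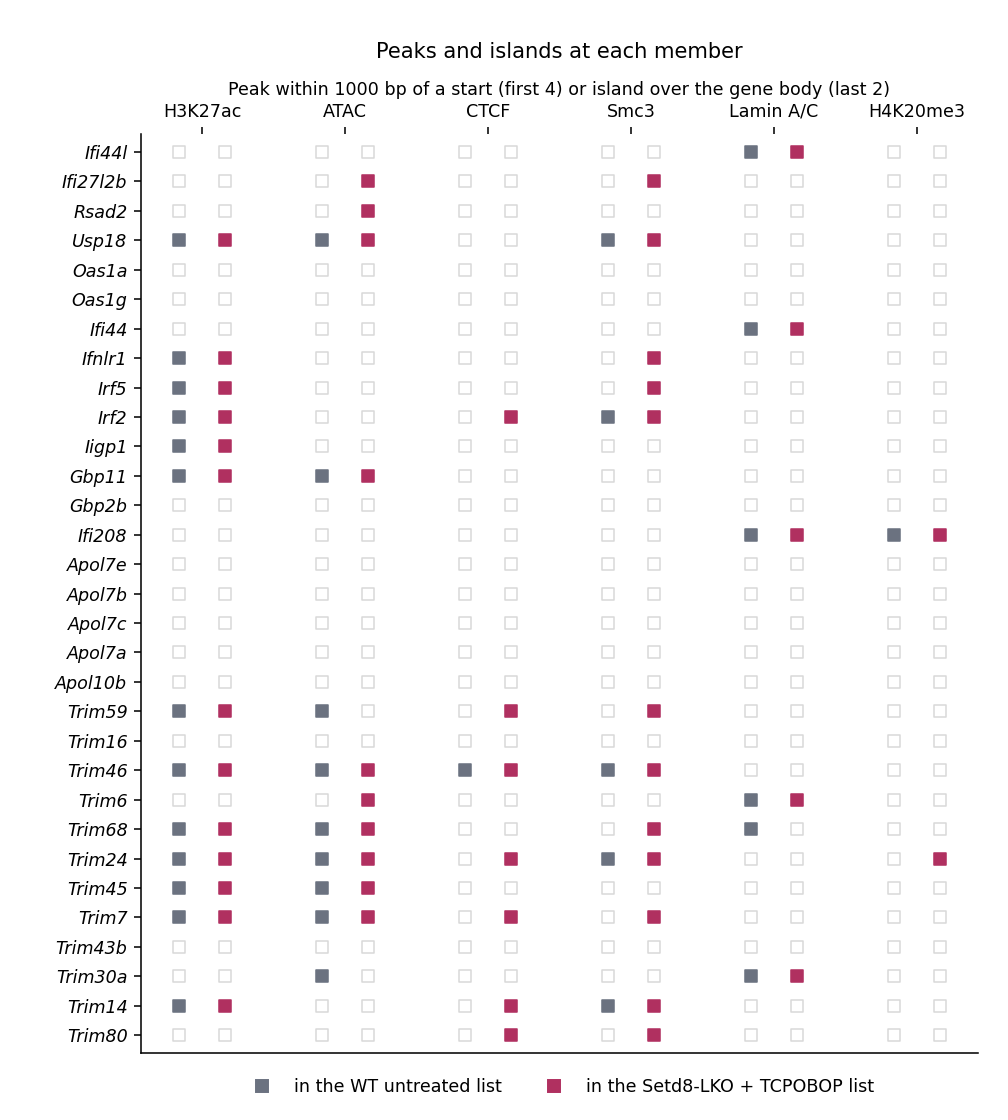
Presence (filled square) or absence (open square) of a peak within 1000 bp of a start (H3K27ac, ATAC, CTCF, Smc3) or of an island over the gene body (Lamin A/C, H4K20me3) for each of the 31 members (rows), in the WT untreated list (grey) and the Setd8-LKO + TCPOBOP list (red). H3K27ac squares are alike in both lists, ATAC squares appear in red alone at Ifi27l2b, Rsad2 and Trim6, and the Apol rows are empty.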

How the data were processed

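The authors filtered RNA-seq reads with PRINSEQ 0.20.4, aligned them to mm10 with HISAT2 2.1.0 and counted, normalized and tested them with metaseqR. Of the deposited tables, the raw counts and the normalized counts of each library were used. The latter are raw counts times a factor per library that the authors rounded to whole numbers, recorded here as a score. Their fold changes and p-values, and 114 further columns of values per library, were not used. Peaks carry the ratio (fold enrichment) and -log10 p that the authors computed with MACS2 2.2.7.1, and islands the score the authors computed with SICER; how replicates were pooled for calling is not given in the sources used here.

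Counts of all genes of each table were fitted with edgeR 4.0.16 in R 4.3.3 (glmQLFit, glmQLFTest, filterByExpr with a minimum count of 10 at 40000000 reads, the authors' factors as scaling) and adjusted by Benjamini-Hochberg over the tested genes of that table. Calls needed an adjusted p under 0.05 and a log2 fold change of 1 or more in size. The fit was also run on simulated counts in which a minority of genes changed and the scaling factors were given. Such a run cannot speak to the choice of scaling. Exact permutation tests used log2(normalized count + 1). With all reads of a library unknown, intervals and the floor of 3 counts cover counting error only. DESeq2 1.42.0 served alternatives, and Python 3.11.15 the rest. Library names follow the titles. The methods call the RNA samples biological replicates. The members, gene lists and tests were chosen with earlier results of these data known. All members may be named; values in every library are given for up to 10 rises and 10 falls per comparison and for a list of interferon pathway genes.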

Additional observations from a re-analysis of the deposited data

Results flagged for a closer look

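In 9 of the 63 groups of libraries examined for a member, 1 library stood apart from the others by more than Dixon's 95% limit. That limit is passed in about 1 in 20 groups of independent, normally distributed values. Counts are not such values and the same libraries recur in many groups, so the 9 cannot be weighed against this rate. WT4 accounted for 4 of the 9, all on the high side, with Ifi44 at 91 (the next WT library at 44), Oas1g at 166 (63), Oas1a at 171 (99) and Apol10b at 33 (5). WT3 was low for Apol7e at 31 (the next at 58) and high for Trim43b at 26 (10), and WT1 was high for Trim30a at 3781 (1482). LKO4, the only Setd8-LKO library of run A, was high for Gbp11 at 287 (the next at 77) and for Trim6 at 107 (54). These are normalized counts, and their cause was not tested.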

How the results depend on the processing

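Of the single-member values without a library left out, 202 of 228 kept their direction and their side of the threshold. The replicate numbers shared between groups did not pair the samples (the correlations of the deviations of same-numbered libraries from their group means ranged from -0.408 to 0.221), and with the number as a block 17 members were called higher and 9 lower in Setd8-LKO + TCPOBOP, where Ifi208 (-0.91) and Apol7e (-0.97) lost their call and Gbp11 (-1.66, edgeR adjusted p = 0.046) gained one. With DESeq2's size factors taken over listed genes, 8 members were called higher there and their median log2 fold change was 0.34. In WT + TCPOBOP these factors gave 0 members higher, a median of 0.06, and values of -0.08 for Trim24 and -0.07 for Trim14, and TMM gave 0 members and a median of 0.24. The counts of all genes called higher went from 2245 to 1016 in Setd8-LKO + TCPOBOP (DESeq2's size factors) and from 462 to 123 (DESeq2's size factors) or 151 (TMM) in WT + TCPOBOP. The cause was not tested, and factors taken over genes selected as changed cannot decide which scaling is right. Leaving out each library in turn gave a median of the Setd8-LKO members between 1.07 and 1.39, the highest without WT4. With run as a term, Iigp1 and Ifi208 lost their call, and leaving out single libraries ended that of Ifi44 6 times, and those of Trim43b (Setd8-LKO + TCPOBOP) and Trim80 (WT + TCPOBOP) ended with edgeR p-values adjusted over all protein-coding genes (0.115 and 0.131). If most of the gene body had to lie in islands, 3 members in each Lamin A/C list and 1 in the Setd8-LKO list of H4K20me3 remained, and with a core longer by CT at its end, 3 members (Oas1a, Oas1g and Trim30a) had an ISRE. Depth is not known beyond the listed genes.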
